A study of Mus musculus with 20 samples.

Results

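The Ly49 receptors are a family of C-type lectin-like proteins on mouse natural killer (NK) cells, encoded by the Klra genes. Every microarray probe whose deposited gene name is Klra1 to Klra10 was taken, which gave 13 probes for 9 genes, among 41174 probes with 27827 gene names on the array. No probe carried the name Klra1, so that gene was not analysed here. Klra2 and Klra5 had 2 probes each, Klra3 had 3, and Klra4, Klra6, Klra7, Klra8, Klra9 and Klra10 had 1 each. Each probe was kept apart, because the genes are similar in sequence. Against control mice, no Ly49 probe was called changed by ptaquiloside, by selenium or by both. In these comparisons none of the 25028 probes tested was called either. The 2 Klra2 probes had the largest differences, -0.94 and -1.12 with selenium against control on the log2 scale, and neither passed the threshold.

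Ly49 receptors are type II membrane proteins that form homodimers and read major histocompatibility complex (MHC) class I molecules on other cells. Most members carry an inhibitory motif in the cytoplasmic tail, recruit the phosphatase SHP-1 and restrain killing of cells with normal class I. A few lack that motif, pair with the adaptor DAP12 and activate the cell. Each NK cell switches on its own subset of the family, so the RNA of a whole NK preparation averages over many subsets.

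The samples were splenic NK cells from 20 male C57BL/6 mice, 5 mice and 5 arrays in each of 4 groups, with a different donor behind each array. Mice were dosed by gavage each day over 14 days. Controls received water. The ptaquiloside dose was 5.3 mg/kg and that of selenium 1.3 mg/kg, and the last group received the pair at the same doses. Ptaquiloside is a toxin of bracken fern, and selenium is a trace element built into antioxidant enzymes. The cells were enriched magnetically without touching the NK cells themselves, so other spleen cells can remain. Values are log2 processed signal minus the 75th percentile of the array, so 0 marks the signal of that percentile. Since each 60-base probe binds with its own strength, levels are compared between arrays within a probe, and a brighter probe is not read as a more abundant RNA.

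The array of ptaquiloside mouse 4 stood apart from the other 19. Its 75th percentile was 10.5 intensity units, against 45.5 for mouse 5 of both compounds and 75.3 to 133 on the 18 other arrays. On it 36.3% of spots were well above background, against 51.7% to 60.8% elsewhere. The main limma results of the Ly49 probes with ptaquiloside are therefore given with and without it. The methods' t-test was run only with it. Per the header of their own deposited table, the authors replaced this array, and that of control mouse 1, by a mean over the remaining mice in that group. The ptaquiloside columns there are not numbered like the sample titles, so none of them was matched to a single mouse. All 10 NK cell markers were detected, 9 of them on 20 arrays and Itga2 on 18. Markers of B cells, T cells, macrophages, neutrophils, dendritic cells, erythroid cells and platelets were also detected, and every marker tested was above background on some array of each group. In such mixed RNA, fewer cells of a type and less RNA per cell cannot be told apart.

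All 13 probes lie on chromosome 6, on the minus strand of mm9, and were well above background on at least 19 arrays. The 5 probes seen on 19 arrays were those of Klra2, the third Klra3 probe, Klra4 and the second Klra5 probe, and each missed only ptaquiloside mouse 4. None was saturated. The probe letters below show how far the family can be told apart here: capitals mark the longest run that a probe shares with a Klra probe of another gene name. The Klra6 and Klra9 probes share 17 bases, the longest run between member probes of different genes, at chr6:129966761-129968907 and chr6:130135553-130135612. The second Klra2 probe shares 14 bases with the Klra8 probe, at chr6:131180206-131192837 and chr6:130072163-130075094. The Klra7 probe, at chr6:130168797-130168950, shares 20 bases with a Klra15 probe, which is no member, and this is the longest run in capitals. A span above 60 bases means that the probe's 2 ends are aligned apart on the genome. All sequences are those of the array design as deposited, 5′ to 3′.
Klra6 A_52_P221993: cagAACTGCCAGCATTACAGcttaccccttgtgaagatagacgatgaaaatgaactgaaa
Klra9 A_52_P361471: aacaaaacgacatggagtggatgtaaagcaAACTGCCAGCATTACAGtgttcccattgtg
Klra2 A_51_P269703: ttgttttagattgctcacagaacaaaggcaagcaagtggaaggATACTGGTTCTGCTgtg
Klra8 A_52_P98698: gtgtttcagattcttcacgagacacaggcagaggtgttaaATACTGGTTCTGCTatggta
Klra7 A_52_P248513: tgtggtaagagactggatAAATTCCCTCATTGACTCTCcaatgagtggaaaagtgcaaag

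The 3 Klra3 probes, and the Klra4 probe whose signal followed one of them most closely, are shown for the same reason. They lie at chr6:130283287-130283346, chr6:130283358-130284278, chr6:130273499-130273558 and chr6:130015288-130015347.
Klra3 A_51_P468313: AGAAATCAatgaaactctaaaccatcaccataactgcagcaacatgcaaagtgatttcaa
Klra3 A_52_P34058: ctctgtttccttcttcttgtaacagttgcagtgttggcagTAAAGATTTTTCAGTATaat
Klra3 A_51_P468308: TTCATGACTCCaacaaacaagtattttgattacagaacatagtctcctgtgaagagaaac
Klra4 A_51_P306387: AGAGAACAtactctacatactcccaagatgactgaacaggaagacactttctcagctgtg
The first Klra3 probe lists RefSeq transcripts of Klra3, Klra10, Klra9 and Klra6 in the array annotation. In all, 5 of the 13 probes list more than 1 gene or transcript: this one and the Klra4, Klra6, Klra9 and Klra10 probes. Their values are uncertain as to which receptor they report, even where the shared run is short. The other 8 list a single one. The first Klra2 probe lies at chr6:131170183-131170242 and lists Klra2 only. It shares at most 10 bases with another family probe, and reads as follows.
Klra2 A_52_P147466: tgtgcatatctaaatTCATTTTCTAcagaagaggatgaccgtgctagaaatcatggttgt

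Klra7 encodes Ly49G, an inhibitory receptor whose known ligands include class I molecules of the H-2D locus. Its control level was 6.27 ± 0.29 (SD, n = 5). Klra7 read 6.48, 6.68, 6.04, 6.08 and 6.08 in control mice 1 to 5 and 5.81, 6.57, 6.38, 5.03 and 6.33 in ptaquiloside mice 1 to 5. For Klra7 the values were 6.23, 6.74, 6.21, 6.35 and 6.10 in selenium mice 1 to 5 and 6.32, 6.60, 6.25, 6.51 and 6.53 in the 5 mice given both compounds. All 4 groups overlapped, and ptaquiloside mouse 4 was the lowest of the 20. Klra9 encodes Ly49I and Klra3 Ly49C, inhibitory receptors that bind the class I molecule of the H2-K1 gene in this strain.

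Klra9 read 4.48, 4.33, 3.78, 3.99 and 3.83 in control mice 1 to 5 and 4.07, 4.33, 4.24, 1.60 and 4.48 in ptaquiloside mice 1 to 5. For Klra9 the values were 4.21, 4.79, 4.10, 4.09 and 4.35 in selenium mice 1 to 5 and 4.31, 4.26, 4.26, 4.48 and 4.51 in the 5 mice given both compounds. The Klra9 control mean was 4.08 ± 0.31 (SD, n = 5), selenium mouse 2 was the highest mouse, and the groups overlapped. The first Klra3 probe read 2.29, 1.90, 1.64, 1.81 and 1.50 in control mice 1 to 5 and 1.53, 1.91, 2.00, -0.07 and 2.25 in ptaquiloside mice 1 to 5. For the first Klra3 probe the values were 1.75, 2.24, 1.65, 1.92 and 2.28 in selenium mice 1 to 5 and 2.22, 1.86, 2.04, 2.27 and 1.18 in the 5 mice given both compounds. Its control mean was 1.83 ± 0.30 (SD, n = 5), and the lowest array apart from ptaquiloside mouse 4 was mouse 5 of both compounds. The other 2 Klra3 probes had control means of 1.41 ± 0.29 and 0.74 ± 0.38 (SD, n = 5).

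Klra6 encodes the inhibitory receptor Ly49F, and Klra10 encodes Ly49J. Klra6 read 3.30, 3.08, 3.06, 2.75 and 2.58 in control mice 1 to 5 and 3.08, 3.20, 3.11, 0.71 and 3.14 in ptaquiloside mice 1 to 5. For Klra6 the values were 2.95, 3.47, 3.14, 2.82 and 3.02 in selenium mice 1 to 5 and 3.12, 3.21, 3.19, 3.26 and 3.31 in the 5 mice given both compounds. Without ptaquiloside mouse 4, Klra6 was tightest in the groups that received ptaquiloside, with an SD of 0.053 over 4 ptaquiloside arrays and 0.074 over 5 with both compounds, against 0.29 in control. With that mouse the ptaquiloside SD of Klra6 was 1.09. Not all probes shared this narrow spread. Klra10 had an SD of 0.26 with ptaquiloside without mouse 4 and 0.32 with both compounds, against 0.25 in control. For Klra8 the same values were 0.17 and 0.13, against 0.25. Klra10 read 3.60, 3.61, 3.20, 3.32 and 3.04 in control mice 1 to 5 and 3.02, 3.62, 3.29, 0.31 and 3.49 in ptaquiloside mice 1 to 5. For Klra10 the values were 3.26, 3.73, 3.27, 3.33 and 3.61 in selenium mice 1 to 5 and 3.56, 3.62, 3.38, 3.85 and 3.00 in the 5 mice given both compounds. Klra10 had a control mean of 3.35 ± 0.25 (SD, n = 5), and its groups overlapped.

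The activating receptors among the 9 genes are Klra4 (Ly49D) and Klra8 (Ly49H), both of which signal through DAP12. Ly49H is known for binding a protein of mouse cytomegalovirus on infected cells. Klra8 read 5.48, 5.37, 5.00, 5.07 and 4.90 in control mice 1 to 5 and 5.08, 5.47, 5.25, 1.82 and 5.39 in ptaquiloside mice 1 to 5. For Klra8 the values were 5.24, 5.83, 5.28, 5.06 and 5.33 in selenium mice 1 to 5 and 5.34, 5.43, 5.35, 5.61 and 5.59 in the 5 mice given both compounds. Klra8 averaged 5.17 ± 0.25 in control (SD, n = 5), 5.30 ± 0.17 with ptaquiloside without mouse 4 (SD, n = 4), 5.35 ± 0.29 with selenium and 5.46 ± 0.13 with both compounds (SD, n = 5). Neighbours in that order differed by less than their SD, and the groups overlapped. Klra4 read 2.41, 2.09, 1.86, 2.08 and 1.73 in control mice 1 to 5 and 1.73, 2.14, 2.30, -1.21 and 2.25 in ptaquiloside mice 1 to 5. For Klra4 the values were 1.87, 2.48, 1.99, 2.09 and 2.27 in selenium mice 1 to 5 and 2.20, 2.08, 2.25, 2.32 and 1.25 in the 5 mice given both compounds. Klra4 averaged 2.04 ± 0.26 in control (SD, n = 5), and its lowest values were those of ptaquiloside mouse 4 and of mouse 5 of both compounds.

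Klra5 encodes Ly49E, which is typical of fetal NK cells and of lymphocytes in epithelia and less so of adult spleen. The first Klra5 probe read -1.08, -1.42, -1.93, -1.80 and -1.65 in control mice 1 to 5 and -1.72, -1.59, -1.17, -0.29 and -1.14 in ptaquiloside mice 1 to 5. For the first Klra5 probe the values were -1.69, -0.90, -1.28, -1.50 and -1.32 in selenium mice 1 to 5 and -1.53, -1.81, -1.15, -1.45 and -0.99 in the 5 mice given both compounds. It is the only one of the 13 probes for which ptaquiloside mouse 4 was the highest of the 20 mice. The second Klra5 probe had a control mean of -2.16 ± 0.32 (SD, n = 5) and read -2.79 on that array, where it was not well above background.

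Klra2 encodes Ly49B, an inhibitory receptor found mainly on myeloid cells rather than NK cells. The first Klra2 probe read -1.67, -1.10, -0.98, -0.42 and -0.68 in control mice 1 to 5 and -1.25, -1.07, -2.95, -2.85 and -0.56 in ptaquiloside mice 1 to 5. For the first Klra2 probe the values were -1.68, -2.34, -2.80, -2.10 and -0.62 in selenium mice 1 to 5 and -1.87, -1.42, -2.04, -0.68 and -1.18 in the 5 mice given both compounds. The second Klra2 probe read -2.20, -2.00, -1.72, -1.03 and -1.27 in control mice 1 to 5 and -1.72, -1.76, -3.15, -3.21 and -1.37 in ptaquiloside mice 1 to 5. For the second Klra2 probe the values were -2.62, -3.01, -3.76, -3.20 and -1.26 in selenium mice 1 to 5 and -2.33, -1.87, -2.41, -1.28 and -2.53 in the 5 mice given both compounds. In both probes selenium mice 1 to 4 lay below every control mouse, mouse 1 by only 0.013 in the first probe, while selenium mouse 5 lay above 4 of the 5 controls. Ptaquiloside mouse 3 was also below every control mouse, and ptaquiloside mice 1, 2 and 5 lay among them, so the groups overlapped.

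**Figure D1:**
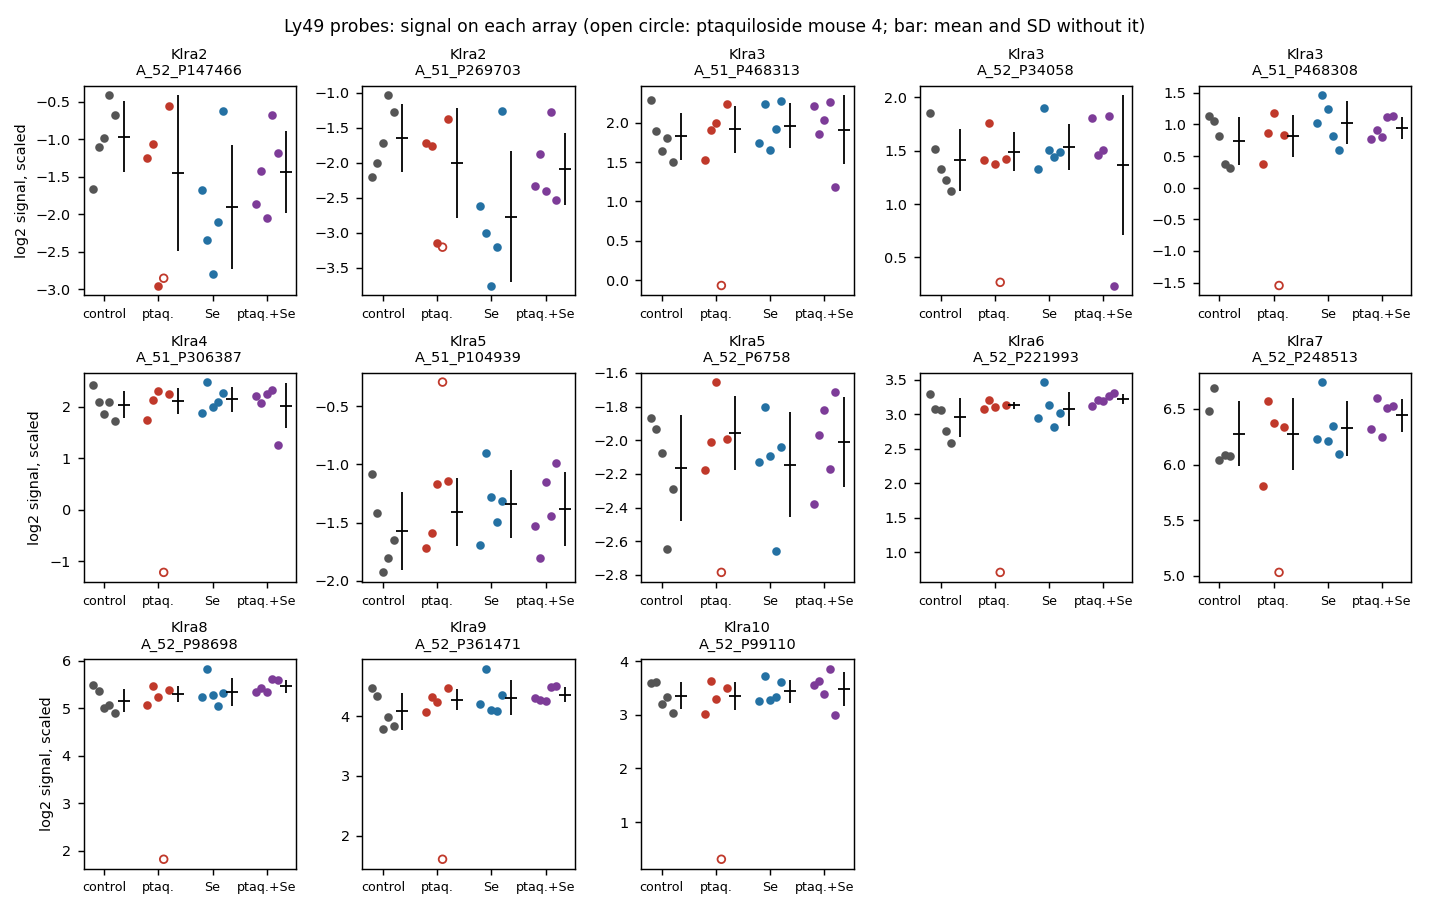
Scaled log2 signal of each Ly49 probe (vertical axis, log2 relative to the 75th percentile of the array) in each mouse of the 4 groups (horizontal axis; ptaq., ptaquiloside; Se, selenium). Points are arrays, the open circle is ptaquiloside mouse 4, and bars are group means with SD without it; the open circle is the lowest of 20 in 9 of 13 probes, and the groups overlap in every probe.

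Ptaquiloside was compared with control to ask whether the toxin alone alters the receptors. With all 20 arrays, 2 of 13 probes were higher and 11 lower, with a median difference of -0.34, while the median over all 25028 probes tested was -0.022. limma called 0 of 13, as it called 0% of all probes, and 0 of 13 had an unadjusted p under 0.05, against 1.68% of all probes (421). The methods' t-test also called 0 after Benjamini-Hochberg adjustment, with 216 probes and 0 Ly49 probes at an unadjusted p under 0.05. The smallest p belonged to the first Klra2 probe, at -0.77 ± 0.47 (SE), followed by the first Klra5 probe at 0.39 ± 0.26 and Klra10 at -0.61 ± 0.44, each with a limma adjusted p of 0.80. The first Klra2 probe was at -0.46 without ptaquiloside mouse 3 and at -0.49 without mouse 4. Of the 8 macrophage and monocyte markers, 7 were lower and 1 higher here, with a median of -0.22, and of the 10 NK markers 9 were lower and 1 higher, with a median of -0.19. Without ptaquiloside mouse 4 those medians were -0.12 and 0.14. The part of either cell type in the Ly49 values was not tested.

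Outside Klra2, 2 of 11 probes were higher and 9 lower with 20 arrays. Once ptaquiloside mouse 4 was left out, 10 of the 11 were higher and 1 lower, and the median over the 13 was 0.081. Klra10 moved from -0.61 to 0.0019, and the first Klra5 probe from 0.39 to 0.17. limma again called 0% of probes, with 1.67% (419) and 0 Ly49 probes at an unadjusted p under 0.05. The 95% intervals of the 11 probes then ran from -0.47 to 0.63 at the widest, so differences larger than 1.54-fold lie outside each probe's interval. With all 20 arrays that limit was 3.04-fold. No Ly49 probe had groups that did not overlap, against 0.0759% of all probes entirely higher and 0.0919% entirely lower. This count was again 0 without ptaquiloside mouse 4, against 0.216% and 0.296%.

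Selenium was compared with control to see the trace element alone. All 11 probes outside Klra2 were higher, by 0.019 to 0.29, and both Klra2 probes were lower, which gave a median over the 13 of 0.12. This rests partly on single mice: the median was 0.026 without selenium mouse 2, 0.029 without control mouse 5, 0.081 without control mouse 4 and 0.21 without control mouse 1. Without selenium mouse 2, 9 of the 13 probes were higher and 4 lower. The median over all probes was -0.0021. limma called 0 of 13 and 0% of all probes, and 1 Ly49 probe, the second of Klra2, had an unadjusted p under 0.05, against 1.08% of all probes (271). The methods' t-test called 0 after adjustment and had 897 probes at an unadjusted p under 0.05, 1 of them a Ly49 probe. Groups did not overlap in 0 Ly49 probes, against 0.212% of all probes entirely higher and 0.316% entirely lower.

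The second Klra2 probe differed by -1.12 ± 0.44 (SE, 95% interval -2.05 to -0.20) and the first by -0.94 ± 0.47 (-1.92 to 0.039), both with a limma adjusted p of 0.999998. Each was lower with selenium on 4 of 5 slides, by 1 unit or more on slides 2, 3 and 4, and close to 0 on slide 5. With another background correction (normexp), the differences were -0.32 and -0.31. Without control mouse 1, the lowest control in both probes, they were -1.26 and -1.11. Without ptaquiloside mouse 4, whose removal only changes the shared spread here, limma had 2 Ly49 probes at an unadjusted p under 0.05, both of Klra2, against 2.73% of all probes, and called 0%. Next by p was the first Klra5 probe, at 0.24 ± 0.26 (SE), with a range of 0.13 to 0.36 when 1 array was left out. Among the 11 probes outside Klra2, the largest change within any interval was 1.65-fold without ptaquiloside mouse 4 and 2.30-fold with it.

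Macrophage and monocyte markers moved with Klra2. Of the 8 listed markers, 7 were lower with selenium and 1 higher, with a median of -0.50 and 0 called by limma. Cd14, a co-receptor for bacterial lipopolysaccharide, differed by -0.97, Mrc1, a mannose receptor, by -1.48, and Spic, a factor of red-pulp macrophages, by -0.87. All of these lie beyond the list median of -0.50 and are not typical of the list, and the marker that was higher is not among them. The mean of the 8 markers read 2.73, 3.29, 3.34, 3.40 and 3.43 in control mice 1 to 5 and 2.43, 2.78, 2.43, 2.34 and 3.42 in selenium mice 1 to 5. Selenium mouse 5 lay within the control range in both the markers and the Klra2 probes.

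Ptaquiloside mouse 3, low in Klra2, had a marker mean of 2.21, against 3.26, 3.27 and 3.34 in ptaquiloside mice 1, 2 and 5. With both compounds the marker mean was 2.84, 3.08, 2.67, 3.20 and 2.79, within or just below the control range. Over the 19 arrays without ptaquiloside mouse 4, Pearson's r of the marker mean with the Klra2 probes was 0.89 and 0.91. For the 11 other Ly49 probes it lay between -0.58 and 0.13. These points share arrays, scaling and dose groups, and r is given as a description. The part of the macrophage markers in the Klra2 difference was not tested. B cell markers had a median difference of -1.06 with selenium and T cell markers of -0.49, and r of their means with the Klra2 probes was -0.26 to 0.15. Of 8 neutrophil markers 7 were higher with selenium and 1 lower, with a median of 0.55, and r of their mean was -0.60 with the first Klra2 probe and -0.72 with the second. The part of these cells was not tested either.

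**Figure D2:**
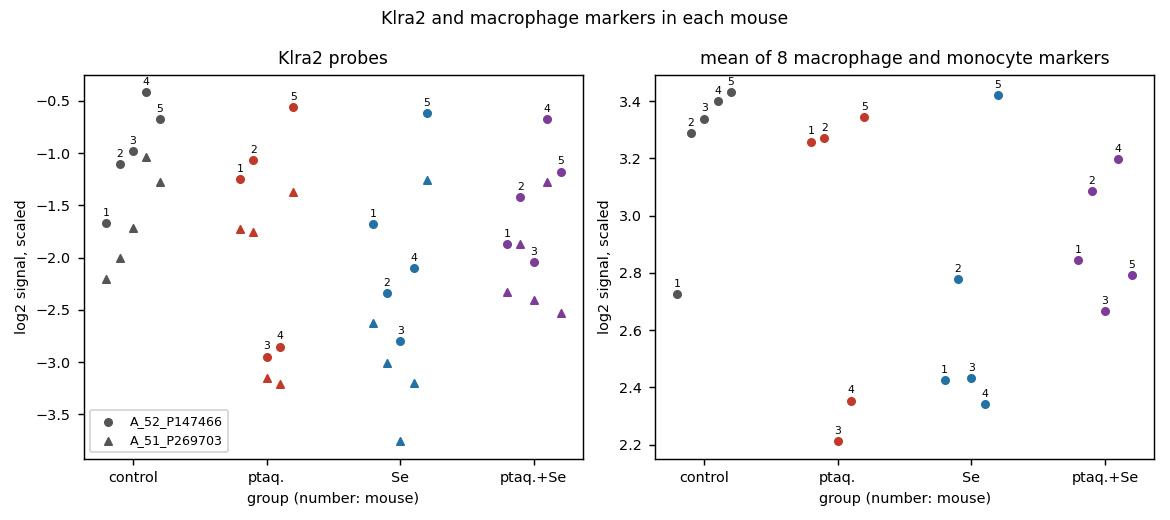
Left, the 2 Klra2 probes in each mouse (circles and triangles), with the mouse number above the circles; right, the mean of 8 macrophage and monocyte markers in the same mice, both as scaled log2 signal by group. Selenium mice 1 to 4 read 2.34 to 2.78 on the right, and selenium mouse 5 is high in both panels.

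Both compounds were compared with control to see the combined dosing. Of 13 probes 9 were higher and 4 lower, with a median of 0.15 against 0.0085 over all probes. limma called 0 of 13 and 0% of all probes, and 0 Ly49 probes had an unadjusted p under 0.05, against 0.228% of all (57). With ptaquiloside mouse 4 left out, limma called 0% and the unadjusted figures were 0 Ly49 probes and 0.659% of all. The methods' t-test called 0 after adjustment and had 252 probes at that unadjusted level, 1 of them a Ly49 probe. No Ly49 probe had groups that did not overlap, against 0.0599% entirely higher and 0.0879% entirely lower.

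The smallest p values were those of the first Klra2 probe, at -0.47 ± 0.47 (SE), the second, at -0.44 ± 0.44, and Klra6, at 0.26 ± 0.36, each with a limma adjusted p of 0.999988. The second Klra2 probe was at -0.28 without control mouse 4, and Klra6 at 0.17 without control mouse 5. The first Klra2 probe was lower with both compounds on 5 of 5 slides, by between -0.20 and -1.06, and the second on 4 of 5. All 8 macrophage and monocyte markers were lower as well, with a median of -0.27. The largest change within any interval of the 11 probes outside Klra2 was 2.49-fold with 20 arrays and 1.56-fold without ptaquiloside mouse 4.

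**Figure D3:**
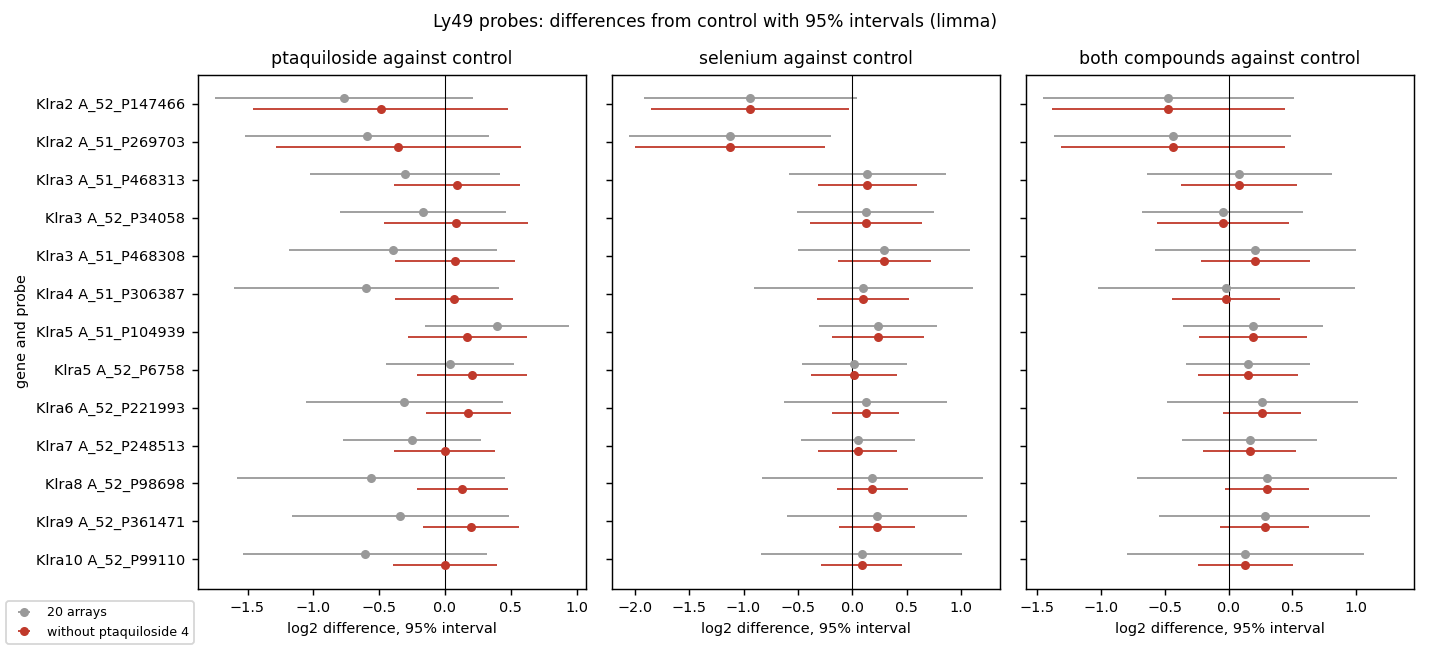
Differences from control on the log2 scale (horizontal axis) with 95% limma intervals for each Ly49 probe (vertical axis), for ptaquiloside, selenium and both compounds. Grey uses 20 arrays and red leaves out ptaquiloside mouse 4; leaving it out narrows every interval shown except that of the second Klra2 probe for ptaquiloside, and moves the ptaquiloside differences outside Klra2 to between -0.0022 and 0.20.

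Adding selenium to ptaquiloside was read from both compounds against ptaquiloside, which shares arrays with the comparisons above. With 20 arrays 12 of 13 probes were higher and 1 lower, with a median of 0.42 against 0.016 over all probes. limma called 0 of 13 and 0% of all, with 0 Ly49 probes at an unadjusted p under 0.05 against 2.61% of all (654). The methods' t-test called 0 after adjustment, with 300 probes and 0 Ly49 probes at that level. Non-overlapping groups were found in 0 Ly49 probes, against 0.14% of all probes higher and 0.132% lower, and without ptaquiloside mouse 4 again in 0, against 0.356% and 0.467%.

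Klra8 differed by 0.86 ± 0.49 (SE), Klra10 by 0.74 ± 0.44 and Klra7 by 0.42 ± 0.25, each with a limma adjusted p of 0.83. Without ptaquiloside mouse 4 these became 0.17, 0.13 and 0.17, and the median over the 13 probes became 0.021, with 0% called by limma and 2.95% of probes but 0 Ly49 probes at an unadjusted p under 0.05. The largest change within any interval outside Klra2 was 3.68-fold with that array and 1.59-fold without it.

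Adding ptaquiloside to selenium gave 8 probes higher and 5 lower, with a median of 0.054 against 0.0072 over all probes. limma called 0 of 13 and 0% of all, with 0 Ly49 probes and 0.631% of all probes (158) at an unadjusted p under 0.05, and 0 and 1.77% without ptaquiloside mouse 4. The methods' t-test called 0 after adjustment, with 356 probes and 0 Ly49 probes at that level. Groups did not overlap in 0 Ly49 probes, against 0.112% of all probes higher and 0.0719% lower. The second and first Klra2 probes were higher, at 0.69 ± 0.44 and 0.47 ± 0.47 (SE), followed by the second Klra5 probe at 0.13 ± 0.23, all with a limma adjusted p of 0.999935. With 1 array left out these ranged from 0.44 (selenium mouse 3) to 1.07 (selenium mouse 5), from 0.25 to 0.79 (the same mice) and from 0.0051 (selenium mouse 4) to 0.22 (mouse 1 of both compounds). The median then ranged from 0.0026 without selenium mouse 3 to 0.17 without selenium mouse 2.

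The interaction asks whether the 2 compounds together differ from the sum of each alone. It was 1.28 ± 0.63 (SE) and 1.24 ± 0.66 for the Klra2 probes and -0.44 ± 0.37 for the first Klra5 probe, each with a limma adjusted p of 0.997. limma called 0 of 13 and 0% of all probes, with 0 Ly49 probes and 1.36% of all (340) at an unadjusted p under 0.05, and 0 and 2.45% without ptaquiloside mouse 4. The median over the 13 was 0.39 with 20 arrays and -0.071 without ptaquiloside mouse 4, where the Klra2 values were 1.04 and 0.96 and that of the first Klra5 probe -0.22. With normexp correction the Klra2 values were 0.24 and 0.18. Beside them, the interaction was above 0 for 8 of 8 B cell markers (median 1.59), 7 of 9 T cell markers (0.80), 7 of 8 macrophage and monocyte markers (0.49) and 7 of 8 neutrophil markers (0.40), with 0 called by limma. Without ptaquiloside mouse 4 those medians were 1.38, 0.53, 0.21 and 0.16. In the remaining marker lists, the interaction was above 0 for 6 of 7 erythroid markers (median 0.66) and 4 of 10 NK markers (-0.070). It was above 0 for 3 of 8 dendritic cell markers (-0.049) and 0 of 5 platelet markers (-0.36). These medians were 0.72, -0.33, -0.036 and -0.66 without ptaquiloside mouse 4. The part of any of these cells in the Klra2 values was not tested. Over all 4 groups at once, the limma F-test called 0 of 13 and 0%, with 1.02% of all probes (256) and 0 Ly49 probes at an unadjusted p under 0.05, and 1.69% and 0 without that array.

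On the dim array, 12 of 13 Ly49 probes were below the mean of the other 4 ptaquiloside arrays, with a median of -1.99 against -0.036 over all probes. The differences were -3.48 for Klra8, -3.32 for Klra4, -3.05 for Klra10, -2.67 for Klra9 and -2.42 for Klra6. That of Klra7 was -1.24, and the first Klra5 probe differed by 1.11. Across the whole array the dimmest 10% of probes differed by a median of 3.38 and the brightest 10% by -1.64. Klra7, Klra8, Klra9 and Klra10 are in the brightest 10%. The differences of Klra8, Klra9 and Klra10 lay beyond that median, and that of Klra7 did not. The NK marker mean was 2.42 there, against 4.08 to 4.41 in the other 4 ptaquiloside mice. The part of RNA quantity, labelling and cell makeup in this array was not tested.

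**Figure D4:**
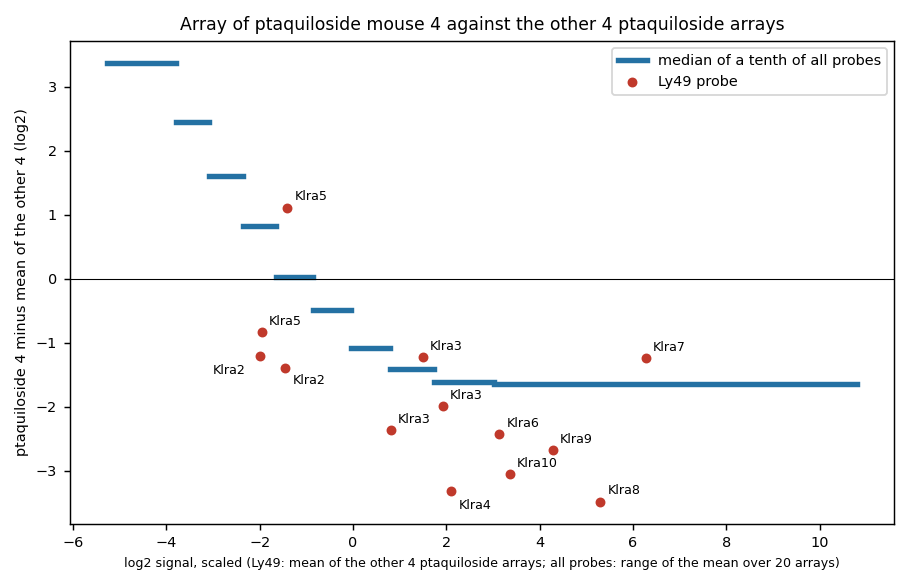
Ptaquiloside mouse 4 minus the mean of the other 4 ptaquiloside arrays (vertical axis, log2) against scaled log2 signal (horizontal axis). Red points are the 13 Ly49 probes at their mean on those 4 arrays; blue bars are medians over each 10% of the 25028 probes tested, in order of brightness, drawn over their range of 20-array means. Of the red points, only that of the first Klra5 probe lies above 0.

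Mouse 5 of both compounds, which had the next lowest 75th percentile, was low in some probes and not in others. The second Klra3 probe read 0.24 there, against a mean of 1.65 in the other 4 mice of the group. The first Klra3 probe read 1.18 against 2.10, Klra4 1.25 against 2.21 and Klra10 3.00 against 3.60. The third Klra3 probe, however, read 1.14 against 0.90, and Klra6, Klra7, Klra8 and Klra9 were 0.11 to 0.18 above the other 4. The NK marker mean was 3.48 in this mouse, the lowest of the 19 arrays, and its part in these values was not tested.

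Across the 19 arrays without ptaquiloside mouse 4, pairs of the 11 probes outside Klra2 had a median Pearson r of 0.53, from -0.082 to 0.95. Klra8 and Klra9, one activating and one inhibitory, had the highest r with each other, 0.95, and their probes share no listed gene. The first Klra3 probe and Klra4 had an r of 0.94, Klra6 and Klra8 0.87, and Klra10 and the first Klra3 probe 0.84. The probes of that last pair both list Klra10 and Klra9. The 2 Klra2 probes had an r of 0.93 with each other, and from -0.65 to 0.14 with the other 11. These are descriptions over arrays that share slides, scaling and dose groups.

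Probes of the same gene did not always run together. The first 2 Klra3 probes had an r of 0.80, but the third had 0.24 and 0.20 with them and was closest to Klra6, at 0.74. The Klra5 probes had an r of 0.61. Part of this structure rests on mouse 5 of both compounds: without it, r rose from 0.42 to 0.83 between Klra4 and Klra9 and from 0.36 to 0.79 between Klra4 and Klra8. Between the second Klra3 probe and Klra8 r rose from 0.26 to 0.84, and between that probe and Klra4 it fell from 0.86 to 0.71. Between the third Klra3 probe and the first 2 it became 0.43 and 0.60. It changed little for Klra8 and Klra9, at 0.94, and for the first Klra3 probe and Klra4, at 0.93.

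**Figure D5:**
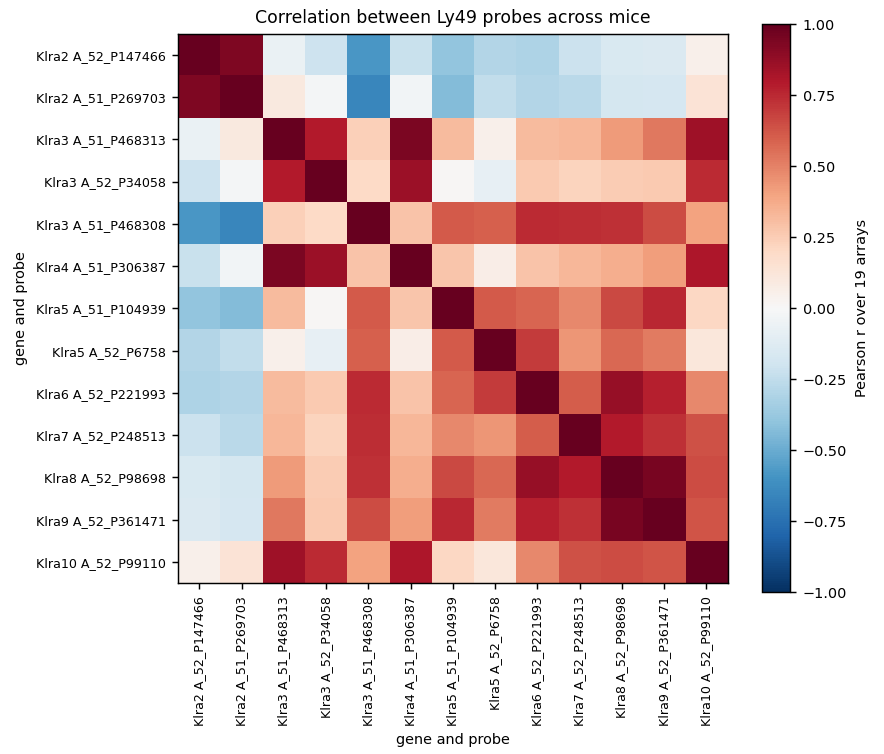
Pearson correlation between the 13 Ly49 probes over 19 arrays (colour, from -1 to 1), with gene and probe on both axes. The Klra2 pair stands apart from the rest. The first 2 Klra3 probes, Klra4 and Klra10 have high values with one another, and so do Klra6, Klra8 and Klra9.

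The molecules that serve the receptors were read from fixed lists, and those named here were singled out for their known roles after the values were seen. Of 12 adaptors, kinases and phosphatases, all were tested and 0 were called by limma in any comparison. With ptaquiloside 12 of 12 were lower (median -0.55), and without mouse 4 of that group 6 were higher and 6 lower (median 0.0077). With ptaquiloside mouse 4 included, Tyrobp, the gene of DAP12, differed from control by -0.034, -0.024 and -0.096 with ptaquiloside, selenium and both compounds. Ptpn6, the gene of SHP-1, differed by -0.62, 0.13 and 0.10, and its ptaquiloside value was -0.17 without that array.

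The 6 genes of the class I ligands and their peptide loading were all higher with selenium, with a median of 0.23, and 0 were called. B2m, the light chain of class I, was 0.16 above control there, H2-K1 0.14 and H2-D1 0.26. The 8 regulators of the NK lineage and of Ly49 expression had 6 higher and 2 lower with selenium (median 0.13), and 0 called. Tcf7, a factor needed for Ly49A expression, differed by -0.069 and Runx3 by 0.35. Of 14 neighbouring receptor genes of the NK gene complex on the array, 12 were higher and 2 lower with selenium (median 0.18), again with 0 called. All 10 NK markers were higher with selenium as well, with a median of 0.26 and 0 called. Of these markers, Klrb1c, Klrk1 and Klrd1 are also on the neighbour list and Eomes is also on the regulator list. These lists are therefore not independent of one another.

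The 11 probes of other Klra names included 10 that could be tested, and 0 were called by limma in any comparison. With selenium 9 were higher and 1 lower (median 0.18), and with both compounds likewise 9 and 1 (median 0.18). With ptaquiloside 1 was higher and 9 lower (median -0.41), which became 7 and 3 (median 0.048) without mouse 4. A Klra16 probe (A_51_P434836) and the Klra22 probe list a transcript that the RefSeq table assigns to Klra1, among others. Their control means were 1.36 and 4.58, and against control with selenium they differed by 0.23 and 0.16. The Klra19 probe was not well above background on any of the 20 arrays.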

How the data were processed

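The deposited scanner files, 1 per array, hold intensity values made with Agilent Feature Extraction 9.5.3.1, per the submitters' processing notes. Their processed signal is background-subtracted and not scaled between arrays, per the file headers. Deposited columns of unit other hold names, probe sequences, mm9 coordinates and flags, per the file headers. The deposited table on the log2 scale, unscaled between arrays, entered only as an alternative. Its control columns were not used. Control mouse 1 and ptaquiloside mouse 4 were replaced in it by the mean of their group's other mice, per the file header, and that ptaquiloside mean was left out here. The numbers of its ptaquiloside columns do not follow the sample titles, so those columns entered by group only.

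For each array, its 75th percentile was subtracted from log2 processed signal. Control and outlier spots were left out, and spots of a probe were averaged. The 25028 of 41174 probes marked well above background on 5 or more arrays were tested, all 13 Ly49 probes among them. limma 3.58.1 (R 4.3.3) fitted 1 mean per group to all 20 arrays, with two-sided moderated tests and Benjamini-Hochberg adjustment over all 25028 at 0.05, after checks on simulated data. The simulated arrays were independent and none was dim, so those checks do not cover shared slides or ptaquiloside mouse 4. Intervals are 95% per probe. Members and lists were chosen with earlier results of these data known. Values per mouse are given for the probe of each gene with the highest control signal and also, chosen after its values were seen, for the second Klra2 probe, differences for the 3 members with the smallest p per comparison, and other genes only from the lists or as the 5 most like the members' mean. Other background correction, scaling, filters, weights, tests, blocks and array sets were tried.

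Same-numbered mice lay on 1 slide (file headers), each slide holding 1 mouse per group, and each group kept its slide position, which cannot be told apart from treatment. Without ptaquiloside mouse 4, 24 of 27 same-number pairs had deviations from the group mean correlated above 0.1 (median 0.40). Among pairs of different numbers 33 of 108 did (median -0.15). The SE and intervals given come from the fit without the slide. The number of arrays limits the precision.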

Additional observations from a re-analysis of the deposited data

Results flagged for a closer look

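Among 52 sets of 5 arrays, 1 for each Ly49 probe and group, 8 held a mouse whose gap to its nearest neighbour exceeded 0.71 of the set's range. Chance gives about 1 in 20 such sets where the sets are independent. The sets here share arrays between probes, so that rate is no yardstick for the count. Of the 8, 6 were ptaquiloside mouse 4, with values of 0.27 for the second Klra3 probe, -1.21 for Klra4, 0.71 for Klra6, 1.82 for Klra8, 1.60 for Klra9 and 0.31 for Klra10. The other 2 were mouse 5 of both compounds, with 0.24 for the second Klra3 probe and 1.25 for Klra4. These are the arrays with the lowest 75th percentiles, 10.5 and 45.5.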

How the results depend on the processing

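In all 31 settings (20 leaving out 1 array, 11 others, of which 1 was chosen after seeing the data), limma or the methods' t-test called 0 Ly49 probes, and the smallest adjusted p of any was 0.278. With the replicate block (mouse number, equal to slide), calls stayed at 0. There limma had 2 Ly49 probes at an unadjusted p under 0.05 in selenium against control and 2 in the interaction. The share of all probes at that level is not given for this setting, so these counts are not read as a result about the receptors. The replicate block changed no call. The ptaquiloside medians moved most. Ptaquiloside against control (-0.34) became -0.14 with normexp, -0.57 with median centring, which moves the median of all probes to -0.25, 0.23 with array weights, 0.081 without ptaquiloside mouse 4 and mouse 5 of both compounds, and 0.10 with the replicate block and without ptaquiloside mouse 4. Both compounds against ptaquiloside (0.42) became 0.61 with quantile normalization, 0.059 with array weights, -0.10 in the authors' deposited table, 0.08 without the 2 arrays and 0.058 with the block and without ptaquiloside mouse 4. The interaction median (0.39) became 0.18 with normexp, -0.13 with array weights, 0.0058 without the 2 arrays and -0.00073 with the block and without ptaquiloside mouse 4. Leaving out 1 array at a time gave -0.52 to 0.081, 0.021 to 0.59 and -0.071 to 0.57 for these medians, the end near or across 0 being ptaquiloside mouse 4 each time.

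Klra10 in ptaquiloside against control turned to 0.14 with array weights, 0.0019 without the 2 arrays and 0.021 with the block and without ptaquiloside mouse 4, and leaving out 1 array gave -0.83 to 0.0019. The second Klra5 probe in both compounds against selenium turned to -0.061 with normexp. The causes were not tested. Comparisons with control were not run on the deposited table. Signal over background limits 5 of the 13 probes on ptaquiloside mouse 4: both of Klra2, the third of Klra3, that of Klra4 and the second of Klra5 were not well above background there.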

Other observations

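Among genes outside the Klra family, the 5 whose signal followed the mean of the 13 Ly49 probes most closely over 19 arrays were a transcript listed as ENSMUST00000103677 (Pearson's r 0.76), Ubqln2 (0.73), As3mt (0.73), Mphosph9 (0.72) and Mcam (0.71). None of their probes lies on chromosome 6. These are the top of 25028 probes over arrays that share slides and scaling, and are given as values only. The mean includes the Klra2 probes and does not stand for each Ly49 probe. The r of single probes with it ran from 0.31 for the third Klra3 probe to 0.85 for Klra10.

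The mean of the 10 NK markers had an r of 0.84 with the second Klra3 probe, 0.74 with Klra4, 0.71 with the first Klra3 probe and 0.68 with Klra10, and of 0.39 to 0.44 with Klra6, Klra7, Klra8 and Klra9. Without mouse 5 of both compounds the first 4 became 0.76, 0.58, 0.57 and 0.60, and the last 4 lay between 0.68 and 0.74, so the gap between the sets rests on that array. Selenium mouse 2 was the highest of 20 mice in 7 of 13 Ly49 probes.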
